A study of Mus musculus with 14 samples.

Results

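The genes described here are 9 components and receptors of the complement system, chosen by symbol from the 32289 genes of the deposited gene table of mouse ascending aorta. They are the chains of the recognition molecule C1q (C1qa, C1qb and C1qc), the central components C3 and C4b, the alternative-pathway proteases Cfb and Cfd, and the anaphylatoxin receptors C3ar1 and C5ar1. All 9 were found and all 9 passed the filter on low values, an FPKM (the deposited level, a fragment count corrected for transcript length and library size) of 1 or more in at least 3 libraries, as did 13294 genes in all. C3ar1 was under 1 FPKM in all 3 control libraries and C5ar1 in 2 of them, so these receptors passed the filter only through the BAPN-fed groups. Their differences from PBS, and their part in the counts below, are therefore a description only.

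The 14 libraries are bulk RNA sequencing of ascending aorta, all from C57BL/6 mice killed after 6 weeks. Aneurysms are induced in this model by β-aminopropionitrile (BAPN), an agent that stops collagen and elastin from being cross-linked by lysyl oxidases. Controls received PBS (3 libraries), and the other groups received BAPN (4 libraries), BAPN with Cilengitide (3 libraries) or BAPN with SB273005 (4 libraries). Cilengitide is a cyclic RGD peptide that binds αV integrins, and the labels call SB273005 an integrin αV inhibitor too. All mice of the inhibitor groups thus also received BAPN, no group received an inhibitor alone, and the labels give no inhibitor dose and no age of the mice. The labels do not say whether samples came from separate animals, and p-values therefore measure the spread between these samples only, which may be technical.

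Complement is a cascade of plasma proteins that marks targets and recruits phagocytes. C1q binds antibody, dying cells and altered matrix and starts the classical pathway, which cleaves C4 and C2 to form a C3 convertase. The alternative pathway amplifies C3 cleavage through factor B (Cfb), which is cut by factor D (Cfd). The fragments C3a and C5a released along the way act on C3ar1 and C5ar1. Most plasma complement is made in the liver, whereas C1q is made mainly by macrophages, C5ar1 is carried by myeloid cells, and factor D, also known as adipsin, is made by adipocytes.

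Libraries stood apart in ways that the labels do not give. Counts of H2-Ea, an MHC gene that this strain is known to lack, were 0 in all PBS libraries and in SB273005 replicates 1 to 3, and 83 to 130 in the other 8 libraries. In the same 6 libraries the kidney gene Umod stood at 7.73 to 11.6 FPKM, against 19.8 to 25.8 FPKM in the other 8. All PBS libraries lie in the first of these sets, and all libraries of BAPN and of BAPN with Cilengitide lie in the second, so for those groups the set and the treatment cannot be told apart. BAPN with SB273005 has libraries in both sets, and its comparison with PBS is therefore also given within the first set. SB273005 replicate 2 had 548 FPKM of Acta2, the smooth muscle actin, against 2724 to 3994 in the other SB273005 libraries. PBS replicate 1 had 123 FPKM of Alb, the liver albumin gene, against 68.4 and 6.24 in PBS replicates 2 and 3. The same library had 2887 FPKM of summed B and plasma cell markers, against 13.5 and 11.5 in PBS replicates 2 and 3 and at most 97.6 in the other groups. Without it, 0 of the 9 genes passed in BAPN, 5 with Cilengitide and 7 with SB273005 vs. PBS by edgeR's test. Total counts were 49027885 to 72584877 per library, and estimated counts of the 9 genes ran from 102 (C5ar1, in PBS) to 51174 (C3, in BAPN).

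Of the 9 genes, 7 were higher in every library of each BAPN-fed group than in every PBS library: the C1q chains, C4b, Cfb, C3ar1 and C5ar1. C3 and Cfd overlapped with PBS in each group. Against PBS, 1 of the 9 rose by test in BAPN (C5ar1), 7 in BAPN with Cilengitide and 7 in BAPN with SB273005. C5ar1 is in each of these counts and C3ar1 in those of the inhibitor groups. Both receptors passed the filter only through the BAPN-fed groups, and no other member passed in BAPN. A gene was counted as risen where edgeR's quasi-likelihood test over all genes gave a Benjamini-Hochberg adjusted p under 0.05. By the same test 0.181% of all genes tested rose in BAPN, 3.98% in BAPN with Cilengitide and 7.82% in BAPN with SB273005, and 0.233%, 5.58% and 13.2% changed in either direction. Genes that were higher without overlap made up 7.02%, 13.5% and 9.15% of all genes in these comparisons. The median log2 difference of the 9 genes from PBS was 1.44 in BAPN, 2.03 in BAPN with Cilengitide and 2.03 in BAPN with SB273005, beside 0.00, -0.02 and 0.02 over all genes tested. The 3 comparisons share the PBS libraries. No difference between BAPN and either inhibitor group, or between the inhibitors, passed for any of the 9.

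**Figure D1:**
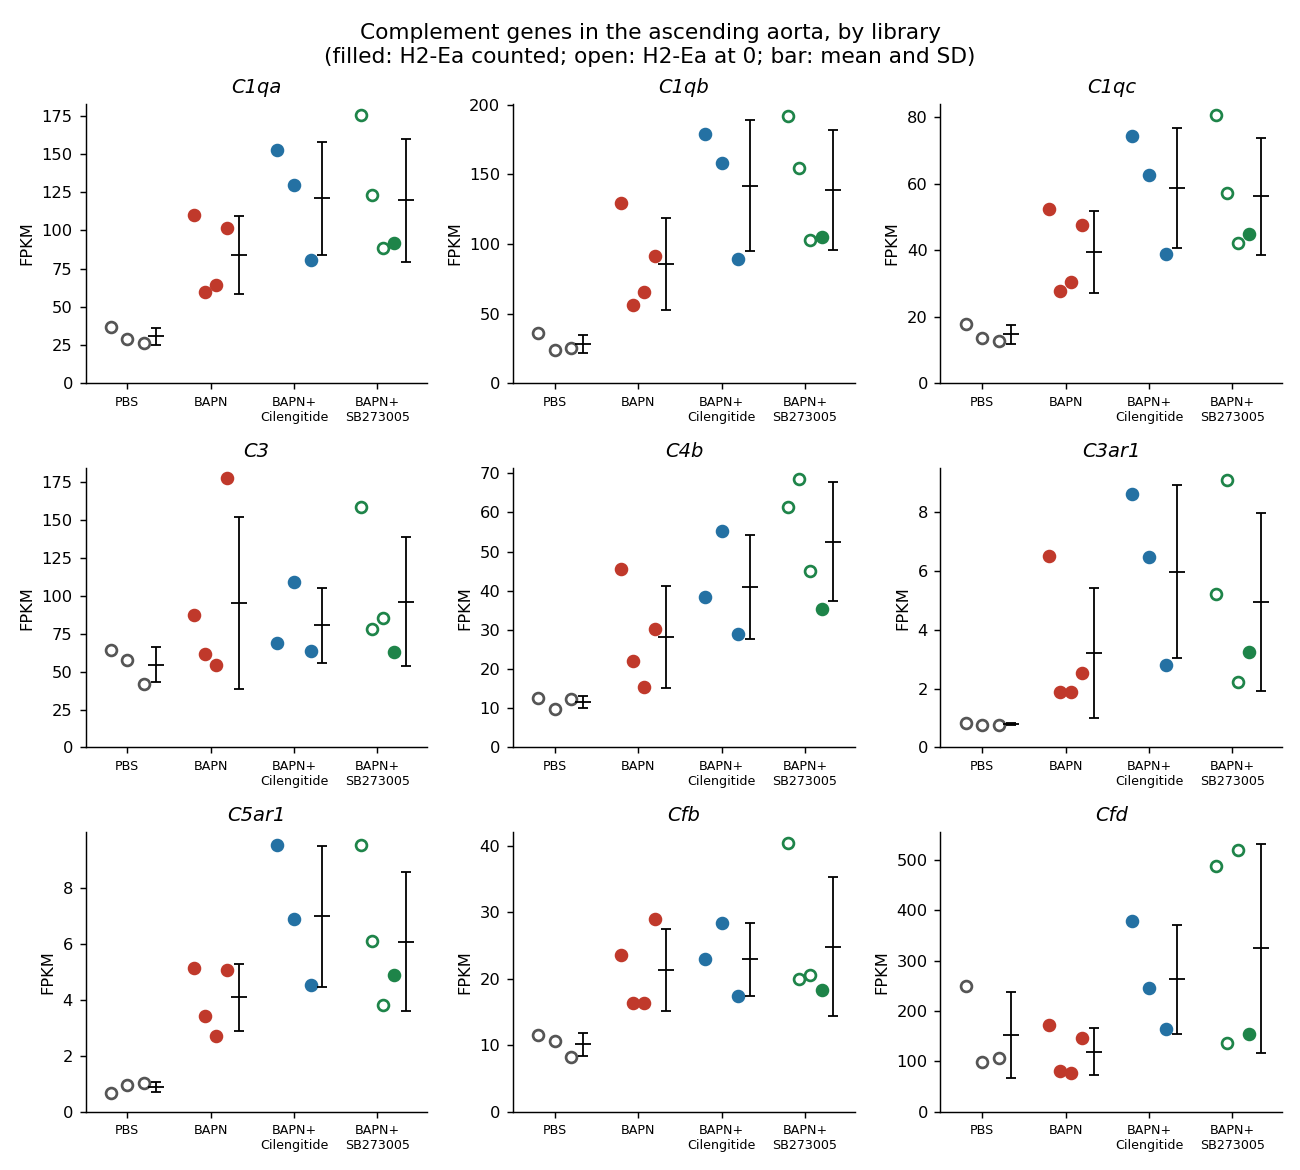
Level of each of the 9 complement genes (FPKM, linear axis from 0) in each library, by group, with 1 point per library (open where H2-Ea had 0 counts) and a bar for mean and SD. The PBS points lie below every BAPN-fed point for the C1q chains, C4b, Cfb, C3ar1 and C5ar1, and overlap with them for C3 and Cfd.

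The C1q chains are encoded next to each other on the minus strand of chromosome 4 (mm10): C1qb at 136880129 to 136886187, C1qc at 136889804 to 136893065 and C1qa at 136895917 to 136898803. The protein is built from all 3 chains in equal number. The 250 bases before the RefSeq starts are shown for C1qb, C1qc and the receptors C3ar1 and C5ar1. Among genes with a matched promoter, these went up and down together across the libraries. C1qa, C4b and Cfb went with them too, but no promoter was matched for those genes. Capitals mark AGGAAG on either strand (CTTCCT where it lies on the other), the purine-rich core of the sites of PU.1, a transcription factor of myeloid cells. Sequences are from RefSeq, build GRCm38.p6, minus strand, and run from 5′ to 3′ at chr4:136886201-136886450, chr4:136892915-136893164, chr6:122856158-122856407 and chr7:16259339-16259588.
C1qb: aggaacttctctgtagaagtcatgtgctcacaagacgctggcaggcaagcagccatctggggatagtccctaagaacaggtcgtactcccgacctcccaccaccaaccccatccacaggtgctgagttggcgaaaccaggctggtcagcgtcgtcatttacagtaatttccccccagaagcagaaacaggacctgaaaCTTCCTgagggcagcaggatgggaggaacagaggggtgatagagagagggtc
C1qc: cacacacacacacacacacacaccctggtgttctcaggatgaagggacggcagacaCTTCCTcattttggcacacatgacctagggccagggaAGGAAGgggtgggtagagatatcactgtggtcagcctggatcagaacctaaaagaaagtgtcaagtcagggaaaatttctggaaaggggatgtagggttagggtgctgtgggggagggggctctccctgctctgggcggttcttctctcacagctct
C3ar1: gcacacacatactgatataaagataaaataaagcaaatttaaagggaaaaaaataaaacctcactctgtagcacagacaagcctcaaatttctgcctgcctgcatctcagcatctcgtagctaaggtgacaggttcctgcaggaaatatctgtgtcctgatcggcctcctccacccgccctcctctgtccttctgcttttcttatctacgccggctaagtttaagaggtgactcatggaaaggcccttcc
C5ar1: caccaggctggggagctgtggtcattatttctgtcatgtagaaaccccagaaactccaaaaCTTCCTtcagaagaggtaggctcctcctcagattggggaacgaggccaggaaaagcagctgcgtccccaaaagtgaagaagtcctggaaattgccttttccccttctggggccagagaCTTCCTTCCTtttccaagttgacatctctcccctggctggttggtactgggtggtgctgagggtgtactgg
C1qb held 1 copy of the motif, at 52 to 47 bases before the start. C1qc held 2, C5ar1 held 3, of which the last 2 overlap, and C3ar1, C3 and Cfd held 0 in their 250 bases. The motif is short and common: 29.5% of 32851 promoter windows of that length held it. Promoters of 6 of the 9 genes were matched by symbol. Of 3 other motifs searched on both strands, TTGCNNAA (C/EBP, in 9.56% of windows) was found in C3 and the NF-κB core (in 1.41%) in C3ar1, and the core of the interferon-stimulated element (in 2.98%) in none of the 6. A match describes these letters only and is not evidence of binding.

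C1qb was at 36.0, 24.0 and 25.0 FPKM in the PBS libraries and at 130, 55.8, 65.4 and 91.3 in BAPN. It was at 179, 158 and 88.9 FPKM in BAPN with Cilengitide and at 192, 154, 103 and 105 in BAPN with SB273005. The lowest BAPN-fed library thus stood above the highest PBS library, while the BAPN libraries overlapped with both inhibitor groups. The group means were 28.3 ± 6.63 (SD, n = 3) in PBS, 85.5 ± 33.0 (n = 4) in BAPN, 142 ± 47.0 (n = 3) with Cilengitide and 139 ± 43.0 (n = 4) with SB273005. C1qb rose 5.19-fold in BAPN with Cilengitide vs. PBS (log2 difference 2.38 ± 0.36 SE, edgeR adjusted p = 0.0055) and 5.14-fold in BAPN with SB273005 vs. PBS (2.36 ± 0.34, adjusted p = 0.0026). In BAPN alone its log2 difference from PBS was 1.60 ± 0.33, which just missed the threshold (edgeR adjusted p = 0.0537). In BAPN the C1q chains passed by DESeq2 (adjusted p = 0.00016 for C1qb), with the stricter filter (0.0499 for C1qb) and without SB273005 replicate 1 (0.0438 for C1qb) or 2 (0.0467 for C1qb).

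C1qa was at 36.8, 28.8 and 26.5 FPKM in PBS and at 110, 59.8, 64.5 and 102 in BAPN. It was at 153, 130 and 80.6 FPKM with Cilengitide and at 175, 124, 88.4 and 91.8 with SB273005. As with C1qb, replicate 1 was the highest library of each group and no BAPN-fed library reached down to PBS. C1qa rose in BAPN with Cilengitide (log2 difference from PBS 2.03 ± 0.32, edgeR adjusted p = 0.0061) and in BAPN with SB273005 (2.03 ± 0.31, adjusted p = 0.0031), and its difference in BAPN was 1.46 ± 0.30 (adjusted p = 0.0537).

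C1qc, the remaining chain, was at 17.8, 13.5 and 12.7 FPKM in PBS and at 52.3, 27.8, 30.3 and 47.7 in BAPN. It was at 74.4, 62.6 and 38.9 FPKM with Cilengitide and at 80.6, 57.1, 42.2 and 45.0 with SB273005. The groups separated as for the other chains. It rose with Cilengitide (log2 difference from PBS 2.05 ± 0.31, edgeR adjusted p = 0.0057) and with SB273005 (2.00 ± 0.30, adjusted p = 0.0031), and its difference in BAPN was 1.44 ± 0.29 (adjusted p = 0.0537). The C1qc level in the gene table understates its transcripts: the summed transcript FPKM was 1.61 times the gene value in every library, against 1.00 to 1.30 times for the other members. Levels of C1qc are therefore compared with the other chains only at the transcript scale.

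**Figure D2:**
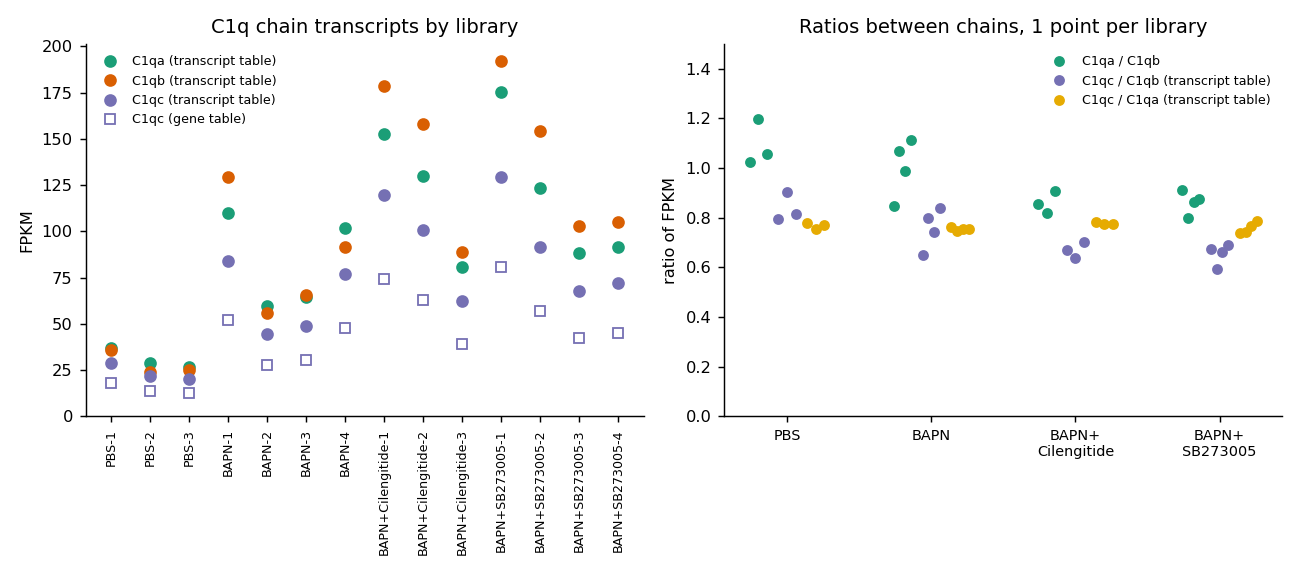
Left, FPKM of the C1q chains in each library (transcript table, with the gene-table value of C1qc as squares). Right, ratios of the chains within each library. The C1qc to C1qa ratio of transcript FPKM stays between 0.738 and 0.788 in all 14 libraries, while the C1qa to C1qb ratio is 1.02 or more in PBS and 0.801 to 0.913 with SB273005.

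Within libraries, C1qc and C1qa kept close to a fixed proportion, and C1qb varied more against both. The C1qc to C1qa ratio of transcript FPKM was 0.738 to 0.788 over all 14 libraries, although the level of C1qa differed several-fold among them. The C1qa to C1qb ratio of FPKM was 1.02 to 1.20 in PBS, 0.849 to 1.11 in BAPN, 0.821 to 0.906 with Cilengitide and 0.801 to 0.913 with SB273005. The C1qc to C1qb ratio of transcript FPKM was 0.796 to 0.902 in PBS, 0.648 to 0.840 in BAPN, 0.637 to 0.703 with Cilengitide and 0.594 to 0.689 with SB273005, and was not tested. The C1qa to C1qb ratio did not overlap between PBS and either inhibitor group, but no difference passed correction: for SB273005 vs. PBS the log2 difference of the ratio was -0.34 (exact two-sided permutation p = 0.0286, the smallest this design allows, adjusted p = 0.122 over 30 tests of 5 ratios). For Cilengitide vs. PBS the difference was also -0.34 (exact permutation p = 0.1, the smallest possible for 3 against 3 libraries). These ratios were chosen after the values had been seen.

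C4b encodes the mouse C4 that is cleaved by C1s in the classical pathway. It lies on chromosome 17 at 34728380 to 34743882, minus strand. C4b was at 12.5, 9.86 and 12.5 FPKM in PBS and at 45.5, 22.1, 15.3 and 30.3 in BAPN. It was at 38.5, 55.2 and 29.1 FPKM with Cilengitide and at 61.4, 68.4, 45.1 and 35.3 with SB273005. The lowest BAPN library, replicate 3, lay just above the highest PBS library, and the inhibitor libraries all lay further above. C4b rose in BAPN with Cilengitide (log2 difference from PBS 1.87 ± 0.37, edgeR adjusted p = 0.0149) and with SB273005 (2.25 ± 0.36, adjusted p = 0.0039), and its difference in BAPN was 1.28 ± 0.35 (adjusted p = 0.123). The call with Cilengitide was lost without PBS replicate 2 (adjusted p = 0.0685) and without Cilengitide replicate 2 (adjusted p = 0.0633). C4a is a near-identical neighbour of C4b, so the counts of the pair are uncertain. The C4b to C4a ratio was 30.4 to 56.0 in PBS and 70.2 to 110 in the BAPN-fed libraries.

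C3, the component on which all pathways converge, did not pass in any comparison. It lies on chromosome 17 at 57203970 to 57228136, minus strand. It was at 64.1, 57.9 and 42.0 FPKM in PBS and at 87.2, 61.8, 54.5 and 177 in BAPN. It was at 69.0, 109 and 63.6 FPKM with Cilengitide and at 159, 78.1, 85.3 and 62.7 with SB273005. Single libraries, BAPN replicate 4 and SB273005 replicate 1, stood well above the rest of their groups, and every BAPN-fed group overlapped with PBS. The log2 differences from PBS were 0.80 ± 0.41 in BAPN, 0.61 ± 0.43 with Cilengitide and 0.87 ± 0.41 with SB273005 (edgeR adjusted p = 0.493, 0.480 and 0.179). A p that misses the threshold does not show that C3 was unchanged.

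Cfb encodes factor B, the C3-binding protease precursor of the alternative pathway, at chromosome 17, 34856374 to 34862518, minus strand. It was at 11.6, 10.6 and 8.18 FPKM in PBS and at 23.6, 16.3, 16.3 and 28.9 in BAPN. It was at 23.0, 28.4 and 17.4 FPKM with Cilengitide and at 40.4, 19.9, 20.6 and 18.3 with SB273005. PBS lay below all BAPN-fed libraries, and the BAPN-fed groups covered much the same range apart from SB273005 replicate 1. Cfb rose with Cilengitide (log2 difference from PBS 1.23 ± 0.31, edgeR adjusted p = 0.0379) and with SB273005 (1.35 ± 0.30, adjusted p = 0.0132), and its difference in BAPN was 1.08 ± 0.29 (adjusted p = 0.129). For the call with Cilengitide, leaving out PBS replicate 1, 2 or 3 or Cilengitide replicate 1 or 2 gave adjusted p of 0.0779 to 0.145, and it was also lost without the low-value filter (0.0763) and by limma on log2(FPKM + 1) (0.0523). The call with SB273005 was lost without PBS replicate 2 (0.0502) or PBS replicate 3 (0.0549). Cfb shares 79.5% of its exon bases with the overlapping gene model Gm20547, which was listed at 0 to 0.0353 FPKM.

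Cfd encodes factor D, which cuts factor B, and lies on chromosome 10 at 79890853 to 79892655, plus strand. It was the most abundant of the 9 genes in all 4 groups by mean. It was at 250, 98.9 and 108 FPKM in PBS and at 172, 81.8, 77.3 and 147 in BAPN. It was at 378, 246 and 164 FPKM with Cilengitide and at 487, 136, 520 and 155 with SB273005. Libraries of one group thus differed by up to several-fold, and all 4 groups overlapped. The log2 difference from PBS was -0.33 ± 0.50 in BAPN, 0.85 ± 0.54 with Cilengitide and 1.16 ± 0.51 with SB273005 (edgeR adjusted p = 0.886, 0.414 and 0.154), and none passed.

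C5ar1, the receptor of C5a on myeloid cells, was the only one of the 9 that passed in BAPN alone. It passed the low-value filter only through the BAPN-fed groups, so its calls against PBS are a description only. It lies on chromosome 7 at 16246743 to 16259540, minus strand. It was at 0.68, 0.94 and 1.01 FPKM in PBS and at 5.15, 3.42, 2.73 and 5.06 in BAPN. It was at 9.55, 6.90 and 4.52 FPKM with Cilengitide and at 9.55, 6.09, 3.80 and 4.90 with SB273005. Every BAPN-fed library lay above every PBS library, with a clear gap between 1.01 and 2.73 FPKM. The log2 difference from PBS was 2.21 ± 0.37 in BAPN (4.62-fold, edgeR adjusted p = 0.0363), 3.02 ± 0.39 with Cilengitide (adjusted p = 0.0039) and 2.84 ± 0.38 with SB273005 (adjusted p = 0.0019). The call in BAPN was lost without PBS replicate 1, 2 or 3 (adjusted p = 0.0998, 0.144 and 0.0826), without BAPN replicate 1, 2 or 4 (0.0768, 0.0551 and 0.0645) and without Cilengitide replicate 2 (0.0572). It was also lost without the low-value filter (0.0659) and by limma on log2(FPKM + 1) (0.0627), whereas C5ar1 passed with SB273005 in each of these.

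C3ar1, the receptor of C3a, lies on chromosome 6 at 122847138 to 122856161, minus strand. Like C5ar1, it passed the low-value filter only through the BAPN-fed groups, so its calls against PBS are a description only. It was at 0.82, 0.77 and 0.77 FPKM in PBS and at 6.49, 1.90, 1.89 and 2.53 in BAPN. It was at 8.61, 6.47 and 2.80 FPKM with Cilengitide and at 5.23, 9.08, 2.22 and 3.25 with SB273005. The 3 PBS libraries lay close together, and the BAPN-fed libraries spread over a wide range above them. C3ar1 rose with Cilengitide (log2 difference from PBS 2.96 ± 0.61, edgeR adjusted p = 0.0176) and with SB273005 (2.73 ± 0.59, adjusted p = 0.0121), and its difference in BAPN was 2.02 ± 0.57 (adjusted p = 0.140). Without BAPN replicate 1, its highest BAPN library, the difference in BAPN was 1.43 ± 0.49 (adjusted p = 0.349), and DESeq2 called it with all libraries (adjusted p = 0.0058). With Cilengitide the call was lost on leaving out PBS replicate 1, 2 or 3 or Cilengitide replicate 1 or 2 (0.0524 to 0.0725), and with SB273005 on leaving out PBS replicate 2 (0.0568).

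**Figure D3:**
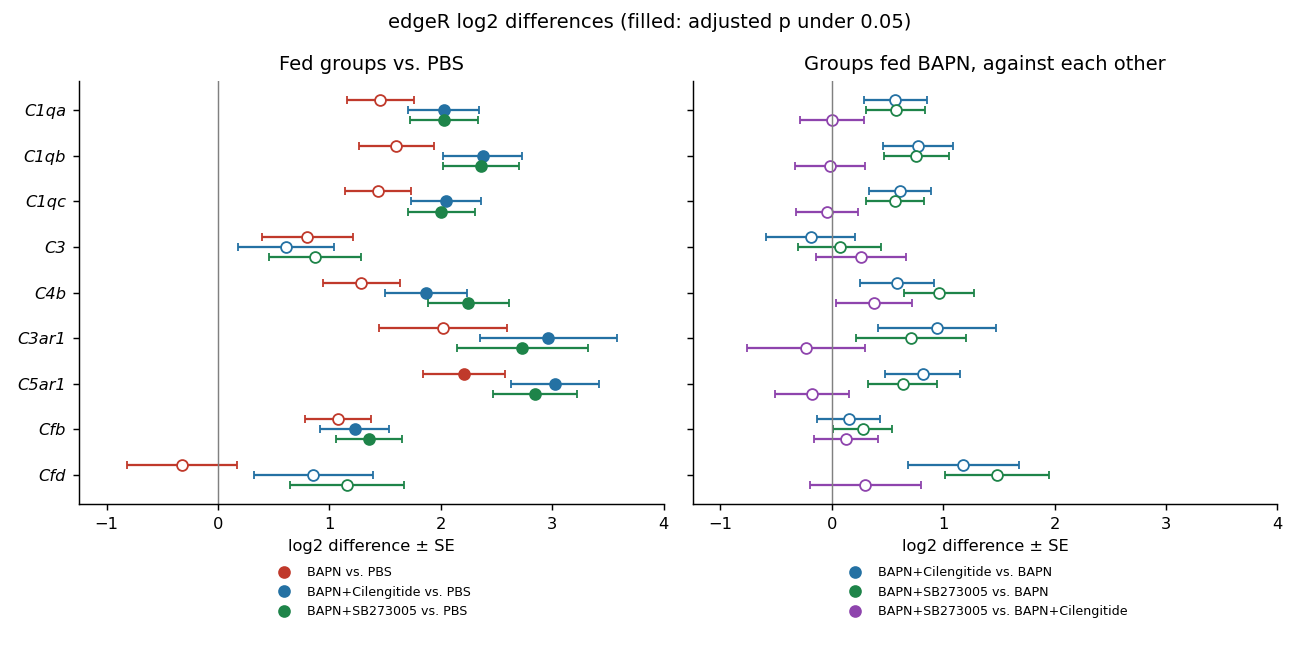
Log2 difference of each of the 9 genes in the 6 comparisons, with bars of 1 SE from edgeR's fit and filled points where the adjusted p is under 0.05. Against PBS the C1q chains, C4b, Cfb and the receptors lie to the right of 0, and no point is filled in the comparisons among the BAPN-fed groups.

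The counts were repeated with the library sets in view. C3ar1 and C5ar1, which passed the filter only through the BAPN-fed groups, are again among the genes counted. Within the first set, SB273005 replicates 1 to 3 against PBS, the same 7 genes passed by edgeR's test, with log2 differences from 1.47 for Cfb to 2.94 for C5ar1, and of 2.14 for C1qa, 2.47 for C1qb and 2.40 for C4b. C3 and Cfd did not pass there (adjusted p = 0.123 and 0.0866). Without SB273005 replicate 2, the library low in Acta2, the same 7 also passed. With the library set as a term in the fit, which then rests on SB273005 replicate 4, 0 of the 9 passed in BAPN vs. PBS and 0 in BAPN with Cilengitide vs. PBS. The log2 differences of the 7 genes were larger in that fit and their SE wider: C1qb was at 2.12 ± 0.62 in BAPN and 2.89 ± 0.64 with Cilengitide, and C5ar1 at 2.61 ± 0.68 and 3.43 ± 0.71. In BAPN vs. PBS the count of 1 moved between 0 and 5 when single libraries were left out, being 4 without SB273005 replicate 2, 5 without SB273005 replicate 1 and 0 without any of the 7 libraries named above for C5ar1. DESeq2 called 7 there. In BAPN with Cilengitide vs. PBS the count of 7 fell to 4 without PBS replicate 2 and to 4 without Cilengitide replicate 2. The counts over all genes moved too, so these moves are not particular to complement. Without single libraries, 31 genes became 2 to 186 in BAPN, 742 became 109 to 1249 with Cilengitide and 1754 became 498 to 1988 with SB273005. Under the other settings they became 3 to 480, 5 to 1465 and 534 to 2607.

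The next question of the design is what each inhibitor added to BAPN. In BAPN with Cilengitide vs. BAPN, 0 of the 9 genes passed, as did 0% of all genes by edgeR's test, and 4 of the 9 (C1qb, C1qc, C5ar1 and Cfd) had an unadjusted p under 0.05, against 6.07% of all genes. The log2 difference of C1qb was 0.78 with a 95% interval of 0.07 to 1.48, that of C5ar1 0.82 (0.07 to 1.56) and that of Cfd 1.18 (0.08 to 2.29), with an edgeR adjusted p of at least 0.795 for each of the 9 genes. C3 was at -0.19 (-1.09 to 0.71). All 9 genes overlapped between these groups, while 2.68% of all genes were higher with Cilengitide without overlap.

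In BAPN with SB273005 vs. BAPN, 0 of the 9 passed by edgeR's test, against 0.0301% of all genes, and 4 (C1qb, C1qc, C4b and Cfd) had an unadjusted p under 0.05, against 16.1% of all genes. The log2 difference of C4b was 0.96 with a 95% interval of 0.26 to 1.66 (edgeR adjusted p = 0.205), and that of Cfd was 1.48 (0.43 to 2.53, adjusted p = 0.199). DESeq2 called Cfd in this comparison (adjusted p = 0.0348) and no other member. Within the second set, SB273005 replicate 4 alone against BAPN gave 0.35 for C1qb and 0.43 for Cfd, with edgeR adjusted p of 0.989 or more for all 9, where the single library is assumed to vary like the other groups. All 9 genes overlapped between the groups, while 1.56% of all genes were higher with SB273005 without overlap.

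Cilengitide and SB273005 could be compared at 6 weeks, as 1 pair of compounds, but not at known doses. No member differed by test, and the log2 difference of SB273005 vs. Cilengitide was 0.00 (95% interval -0.64 to 0.64) for C1qa, -0.02 (-0.72 to 0.69) for C1qb, 0.38 (-0.37 to 1.13) for C4b, -0.18 (-0.93 to 0.57) for C5ar1 and 0.30 (-0.81 to 1.42) for Cfd. The edgeR adjusted p was 0.743 or more for all 9. Of the 9, 0 had an unadjusted p under 0.05, against 9.21% of all genes, and 0 were higher with SB273005 without overlap, against 2.66% of all genes. These intervals are wide on both sides of 0, most of all for Cfd, so they do not show that the compounds act alike. In order of group means, the C1q chains, C3ar1 and C5ar1 ran from Cilengitide to SB273005, BAPN and PBS, and C4b and Cfb from SB273005 to Cilengitide, BAPN and PBS. In these 7 genes only the neighbours BAPN and PBS did not overlap.

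The rest of the pathway was described from lists of other complement genes. Of 15 genes that start the classical and lectin pathways, 7 passed the filter. None of them passed in BAPN, 4 rose with Cilengitide and 5 with SB273005. C1ra and C1s1, the proteases that travel with C1q, rose with Cilengitide (log2 difference from PBS 1.39, edgeR adjusted p = 0.0046, and 1.38, adjusted p = 0.0055) and with SB273005 (1.18, adjusted p = 0.0038, and 1.48, adjusted p = 0.0019). C1s1 stood at 27.0 ± 1.47 FPKM in PBS (n = 3), 54.7 ± 11.7 in BAPN (n = 4), 68.2 ± 9.81 with Cilengitide (n = 3) and 72.2 ± 15.4 with SB273005 (n = 4). The collectin Colec11 rose in both inhibitor groups, by 1.46 (adjusted p = 0.0126) and 1.64 (adjusted p = 0.0039). C2, which pairs with C4 in the convertase, rose with SB273005 (1.31, edgeR adjusted p = 0.0158). The call of Colec11 with Cilengitide was lost without PBS replicate 2 (0.0598), and that of C2 without PBS replicate 1 (0.0577) or 2 (0.0502). C1ra and C1s1 have close copies, C1rb and C1s2, so their counts are uncertain.

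Of properdin and the components of the membrane attack complex, 3 of 8 passed the filter (Cfp, C7 and C8g), and 0 changed in any comparison with PBS. Of 17 regulator genes in the table, 8 passed it. Serping1, which encodes the C1 inhibitor, rose with Cilengitide (log2 difference from PBS 0.90, edgeR adjusted p = 0.0225) and with SB273005 (0.78, adjusted p = 0.0193). It was at 166 ± 35.7 FPKM in PBS (n = 3) and 276 ± 35.6 in BAPN (n = 4). Without PBS replicate 1 or 2 Serping1 missed the threshold with Cilengitide (0.0634 and 0.0662) and with SB273005 (0.0649 and 0.0557), and with Cilengitide also without Cilengitide replicate 2 (0.0913) or 1. Cd59a, which blocks the membrane attack complex, and Vtn, which encodes vitronectin, fell with SB273005 (log2 differences -0.63, adjusted p = 0.0398, and -2.80, adjusted p = 0.0475, by edgeR). Vtn was at 14.4, 4.39 and 0.581 FPKM in PBS replicates 1 to 3, and without PBS replicate 1 its difference was -1.53 (adjusted p = 0.255). Without PBS replicate 2, Cd59a (0.166) and Vtn (0.0901) also missed the threshold. Of 10 other receptor genes, 8 passed the filter, and Itgam, the α chain of the receptor for cleaved C3, rose with Cilengitide (2.86, adjusted p = 0.0075, but 0.0519 without PBS replicate 2) and with SB273005 (2.72, adjusted p = 0.0047). Itgam averaged 0.721 FPKM in PBS, so it could not have passed the filter on the PBS libraries alone. Its calls are a description only. No gene of these 4 lists passed in a comparison among the BAPN-fed groups.

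**Figure D4:**
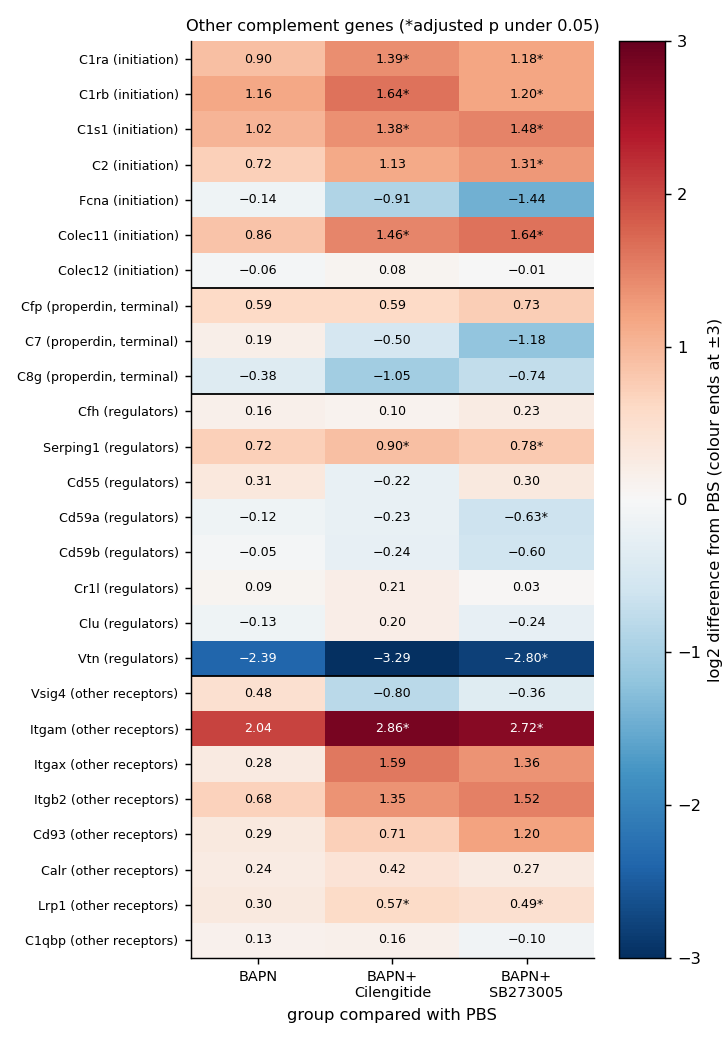
Log2 difference from PBS of the other complement genes that passed the filter, in the 3 BAPN-fed groups, as a colour scale with the value in each cell and a star where the edgeR adjusted p is under 0.05. C1ra, C1s1, Colec11, Serping1 and Itgam are red and starred with both inhibitors, while the properdin and terminal genes carry no star.

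Markers of myeloid cells were measured beside the C1q chains and the receptors, and many of them were higher in the same libraries. Of 14 macrophage markers, all 14 were tested, and 1 (Mrc1, log2 difference 1.84, edgeR adjusted p = 0.0181) rose in BAPN, 8 with Cilengitide and 10 with SB273005 vs. PBS. Fcgr1, which is in the counts of both inhibitor groups, averaged 0.410 FPKM in PBS. It could not have passed the filter on the PBS libraries alone, so its calls are a description only. The call of Mrc1 in BAPN was lost without PBS replicate 1, 2 or 3 (0.0873, 0.109 and 0.0636) and without BAPN replicate 2 or 4 (0.0517 and 0.0538). Their summed level was 124 to 272 FPKM in PBS, 246 to 611 in BAPN, 387 to 773 with Cilengitide and 386 to 927 with SB273005. The geometric mean of the C1q chains, from gene-table FPKM, was divided by Csf1r, the receptor of the macrophage growth factor. This ratio was 3.18 to 3.74 in PBS, 3.61 to 4.83 in BAPN, 3.69 to 4.54 with Cilengitide and 3.56 to 3.96 with SB273005. In bulk tissue, more cells of a type and more RNA per cell cannot be told apart, and the part of the markers in the results was not tested. Neutrophil markers, of which 3 of 10 were tested, summed to 0.443 to 0.818 FPKM in PBS and to 2.53 to 9.76 FPKM in the BAPN-fed libraries. Ly6g and Retnlg were at 0 in all PBS libraries. Ly6g was also at 0 in all libraries of BAPN with Cilengitide, and Mpo in all libraries of BAPN. The 3 genes tested, S100a8, S100a9 and Csf3r, averaged 0.0445, 0.150 and 0.194 FPKM in PBS. They passed the filter only through the BAPN-fed libraries, so that all 3 were called with Cilengitide and with SB273005, and 0 in BAPN, is a description only. Other lists moved in the same libraries. Fibroblast markers summed to 1642 to 2124 FPKM in PBS, 2199 to 3416 in BAPN, 2925 to 3389 with Cilengitide and 2628 to 3330 with SB273005, and of 10 tested 0, 3 and 4 rose. Lum, Col1a1 and Col1a2 rose with both inhibitors. The list did not move as a whole: 10 markers had a log2 difference above 0 in BAPN, but 7 with Cilengitide and 7 with SB273005. Much of the sum was Col1a1, at a mean of 341 FPKM in PBS, 953 with Cilengitide and 908 with SB273005. Smooth muscle markers summed to 9003 to 10703 FPKM in PBS, 7012 to 10663 in BAPN, 6108 to 8087 with Cilengitide and 1178 to 7032 with SB273005, and of 8 tested 0, 0 and 4 fell (Lmod1, Synpo2, Smtn and Myh11). Their part in the complement results was not tested.

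The receptors were also divided by Csf1r within each library. Both passed the low-value filter only through the BAPN-fed groups, and the ratios were chosen after the values had been seen. The ratios and their p-values against PBS are therefore a description only. The C5ar1 to Csf1r ratio was 0.0881 to 0.158 in PBS, 0.206 to 0.365 in BAPN, 0.255 to 0.343 with Cilengitide and 0.199 to 0.271 with SB273005, so PBS lay below all BAPN-fed libraries. The log2 difference of this ratio from PBS was 0.98 in BAPN and 0.86 with SB273005 (exact two-sided permutation p = 0.0286 for each, the smallest possible, adjusted p = 0.122 over the 30 tests). With Cilengitide it was 1.17 (exact permutation p = 0.1, the smallest possible there, adjusted p = 0.3). The C3ar1 to Csf1r ratio was 0.108 to 0.120 in PBS and 0.116 to 0.314 with SB273005, which overlapped, as did BAPN at 0.120 to 0.274. The Cilengitide libraries, at 0.158 to 0.309, all lay above PBS (log2 difference of the ratio 1.00, exact permutation p = 0.1, the smallest possible, adjusted p = 0.3).

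**Figure D5:**
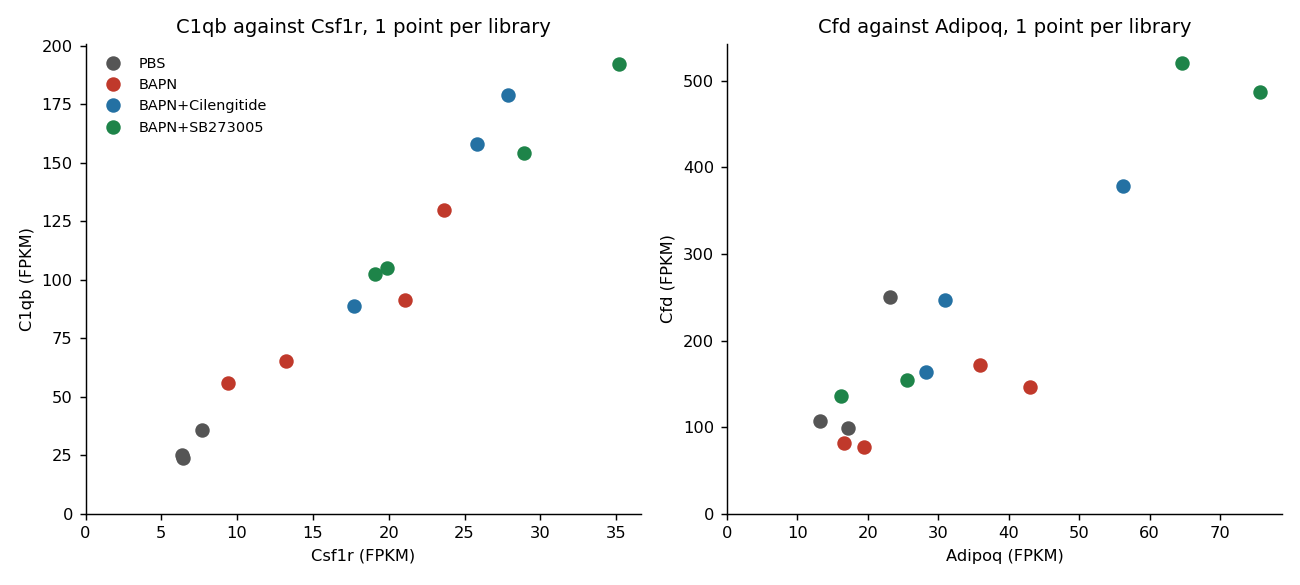
C1qb against Csf1r and Cfd against Adipoq, both in FPKM, with 1 point per library coloured by group. The points of C1qb and Csf1r rise together from PBS to the inhibitor libraries, and the Cfd points of the BAPN group lie below those of the other groups at a like Adipoq level.

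Over the 14 libraries, the mean log2(FPKM + 1) of the C1q chains was most like that of Fcgr3 (Pearson r = 0.988), Csf1r (0.986), Fcer1g (0.985), Alox5ap (0.985) and Itgam (0.983). With the group means taken out, r was 0.939, 0.952, 0.932, 0.934 and 0.940. Among the members, r with the C1q mean was 0.971 for C5ar1, 0.932 for C4b, 0.919 for Cfb, 0.916 for C3ar1, 0.656 for C3 and 0.562 for Cfd. C3 was most like Fcf1 (0.902), Plin2 (0.895), Tmem120a (0.884), Lpcat3 (0.882) and Dgat1 (0.872), and its r with Cfb was 0.870. Cfd was most like Acp5 (0.901), Sipa1l1 (0.899), Jak1 (0.899), Med13l (0.897) and Car5b (0.896). These are descriptions across 14 libraries that share groups and library sets.

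Cfd is an adipocyte product, and the adipocyte markers were measured beside it. They summed to 177 to 213 FPKM in PBS, 193 to 371 in BAPN, 236 to 356 with Cilengitide and 173 to 428 with SB273005. Of the 10 markers, 0 passed in BAPN, 0 with Cilengitide and 1 with SB273005 (Fabp4, log2 difference 1.31, edgeR adjusted p = 0.0434). The call of Fabp4 was lost without any 1 of the PBS libraries (0.0679 to 0.144) and without SB273005 replicate 1 (0.0951) or 3 (0.0824), among other alternatives. Hepatocyte transcripts, measured because most plasma complement is made in the liver, summed to 48.0 to 519 FPKM in PBS and to 43.1 to 158 FPKM in the BAPN-fed libraries. The PBS sums were 519, 201 and 48.0 FPKM in replicates 1 to 3, so replicate 3 lay within the range of the BAPN-fed libraries. Of the hepatocyte list, 5 genes fell with Cilengitide and 6 with SB273005. Of the latter, Alb, Hpx, Ttr and Serpina1c overlapped with PBS. C3, C4b and Cfb did not pass as lower in any comparison. Across PBS replicates 1 to 3, C3 and Cfb fell in the same order as the hepatocyte sums, and C4b did not. The part of either cell type in the levels of C3, Cfb and Cfd was not tested. Of the interferon-response list, 3 genes rose with SB273005 (Irf7, Ifit1 and Oasl2), and its summed level was 47.0 to 149 FPKM there against 48.0 to 53.2 in PBS.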

How the data were processed

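Bulk RNA sequencing of ascending aorta was deposited as a gene table and a transcript table for 14 libraries in 4 groups, which were taken from the labels. RNA was extracted with Trizol, per the labels' protocols. Reads were aligned with HISAT2 2.2.1 and quantified with StringTie 2.1.6, and the build was mm10, per the submitters' processing notes. For the annotation, the read filters and the handling of strand the choice is not given in the sources used here, and genes that overlap or have close copies may share reads. The authors deposited FPKM per gene and per transcript, which are scaled to transcript length and library size. The deposited estimated counts are whole numbers per gene, so the counting error of edgeR's model is approximate.

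The members and gene lists were chosen with earlier results of these data known. Counts were tested with edgeR 4.0.16 in R 4.3.3 (quasi-likelihood, TMM, 1 fit over all 14 libraries, Benjamini-Hochberg adjustment over 13294 genes, threshold 0.05). Genes that reached 1 FPKM in fewer than 3 libraries were left out. SE were worked back from the F statistic, and 95% intervals used a t distribution with 10 degrees of freedom and are approximate. Levels are FPKM as mean ± SD. Ratios within libraries were compared by exact permutation. The named genes are all 9 members, up to 4 genes of each other list per comparison by smallest adjusted p, and the 5 genes most like the C1q mean, C3 and Cfd. H2-Ea, Umod, Acta2, Alb, Retn and the Csf1r and Adipoq ratios were picked after values were seen. The fit was tested on simulated data.

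Replicates differed by more than sampling noise in all 18 pairs (the lowest chi-square per degree of freedom was 59.3). Alternatives were other filters, DESeq2 1.42.0 and its size factors, limma 3.58.1 on log2(FPKM + 1), log2(FPKM + 0.1) and log2(TPM + 1), fits of only the groups compared, a replicate block, the library set as a term and leaving out each library. The fits within the second library set were added after seeing the data.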

Additional observations from a re-analysis of the deposited data

Results flagged for a closer look

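In groups of 4 libraries, a library was picked out where its gap to the nearest other library took up most of the range of the group, by Dixon's criterion at 95%, which chance meets in about 1 in 20 groups. Among the 9 complement genes this held for C3ar1 in BAPN replicate 1, at 6.49 FPKM against 1.89 to 2.53 in the other BAPN libraries. It also held for Cfb in SB273005 replicate 1, at 40.4 FPKM against 18.3 to 20.6 in the other SB273005 libraries.

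Among the list genes, BAPN replicate 3 stood out in liver transcripts. There Alb was at 22.9 FPKM against 5.49 to 8.02 in the other BAPN libraries, Ambp at 3.25 against 0.352 to 0.436 and Hpx at 13.6 against 1.74 to 2.66. Serpina1c was at 6.43 FPKM against 1.37 to 1.91, and Vtn, the complement regulator that is also a liver product, at 2.99 against 0.339 to 0.722. None of the 9 complement genes was highest in that library, and the part of liver transcripts in their levels was not tested. SB273005 replicate 3 had 1.51 FPKM of Ambp against 0.144 to 0.343. The fibroblast gene Lum was at 355 FPKM in BAPN replicate 1 against 122 to 149 in the other BAPN libraries.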

How the results depend on the processing

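For BAPN vs. PBS the number of complement genes past the threshold, 1, became 0 without the low-value filter, by limma on log2(FPKM + 1) and in the fit that had the library set as a term, 3 in a fit of only the groups compared, 4 with the stricter filter, 4 with the replicate block and 7 by DESeq2, and it ran from 0 to 5 when single libraries were left out. All genes called moved there from 31 to between 3 and 480 and between 2 and 186. For Cilengitide vs. PBS the count of 7 became 0 with the library set as a term, where the log2 differences grew (C1qa from 2.03 to 2.52, C4b from 1.87 to 2.60, C3ar1 from 2.96 to 3.75, Cfb from 1.23 to 1.78) and the SE widened, and ran from 4 to 7 without single libraries, and all genes called moved from 742 to between 5 and 1465. For SB273005 vs. PBS it was 7 under all 10 other settings and 5 to 7 without single libraries, and all genes called moved from 1754 to between 534 and 2607 and between 498 and 1988. The genes counted against PBS include C3ar1 and C5ar1, whose calls there are a description only. Against BAPN, DESeq2 called 1 of the 9 with SB273005 and 0 with Cilengitide. It called 395 and 21 genes in all, and 39 between the inhibitors.

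Directions that turned were all of differences that had not passed. For Cfd in BAPN vs. PBS the log2 difference was 0.95 with the library set as a term. For C3 in Cilengitide vs. BAPN it was 0.0072 by log2(TPM + 1) and 0.040 with the replicate block. In SB273005 vs. BAPN, C3 was at -0.026 by log2(TPM + 1), -0.54 with the set as a term and -0.55 within the second set, and Cfb at -0.16 in each of the last settings. In SB273005 vs. Cilengitide, C1qa was at -0.044 without the filter, -0.0049 by DESeq2 and by its size factors, -0.021 by limma on log2(FPKM + 1) and log2(FPKM + 0.1), -0.26 by log2(TPM + 1), -0.38 with the set as a term and -0.39 within the set. C1qb was at 0.019 with the stricter filter and 0.021 with the replicate block. By log2(TPM + 1), the set as a term and within the set, C3 was at -0.033, -0.35 and -0.36, Cfb at -0.17, -0.31 and -0.32, and Cfd at -0.12, -0.75 and -0.76, and C4b was at -0.20 and -0.21 in the last pair. The cause was not tested.

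Leaving out single libraries gave -0.54 to 0.17 for Cfd in BAPN vs. PBS, -0.49 to 0.29 for C3 and -0.049 to 0.33 for Cfb in Cilengitide vs. BAPN, and -0.27 to 0.54 for C3 and -0.054 to 0.45 for Cfb in SB273005 vs. BAPN. In SB273005 vs. Cilengitide it gave -0.23 to 0.19 for C1qa, -0.27 to 0.17 for C1qb, -0.27 to 0.15 for C1qc, -0.082 to 0.56 for C3, -0.75 to 0.11 for C3ar1, -0.47 to 0.10 for C5ar1, -0.21 to 0.32 for Cfb and -0.0055 to 0.64 for Cfd.

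Samples with the same replicate number deviated together by over 0.1 in 12 of 19 pairs (correlations of -0.159 to 0.337). Whether the numbers pair samples is thus open. The main fit had no replicate block because the labels do not say that a number marks a shared litter, day or batch. With the replicate block, C1qa (log2 difference 1.43, edgeR adjusted p = 0.0186), C1qb (1.60, 0.0183) and C1qc (1.40, 0.0176) passed in BAPN vs. PBS beside C5ar1. Between the inhibitors, where all 3 pairs were over 0.1, the block changed no call. Depth limited C3ar1 and C5ar1 most, at 208 and 102 estimated counts in their lowest libraries.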

Other observations

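Cfd was set against 3 of the 10 markers of adipocytes, the cells known to make it. Of these 3, only Adipoq separated BAPN from all other groups. The Cfd to Adipoq ratio of FPKM was 3.41 to 4.90 in BAPN, 5.76 to 10.8 in PBS, 5.82 to 7.97 with Cilengitide and 6.04 to 8.37 with SB273005, so the BAPN libraries lay below all 10 others. The log2 difference of the ratio was -0.92 for BAPN vs. PBS (exact two-sided permutation p = 0.0286), 0.68 for Cilengitide vs. BAPN (exact permutation p = 0.0286) and 0.76 for SB273005 vs. BAPN (exact permutation p = 0.0286). These are the smallest p-values the design allows, the adjusted p was 0.122 for each over 30 tests of 5 ratios, and the ratio was chosen after its values had been seen. Against Cidec, another adipocyte gene, the ratio was 2.65 to 3.85 in BAPN, 4.77 to 6.86 with Cilengitide, 5.30 to 7.60 with SB273005 and 3.81 to 10.4 in PBS, so here BAPN and PBS overlapped. Against Plin1 it was 6.30 to 18.0 in BAPN, 10.5 to 34.3 in PBS, 14.7 to 26.5 with Cilengitide and 17.4 to 33.7 with SB273005, and BAPN overlapped with all 3. Retn, a further marker of the list, was at 1.54 to 2.91 FPKM in BAPN and at 3.20 to 8.25 in PBS. Relative to Retn, Cfd thus stood higher in BAPN than in PBS, the reverse of Adipoq.

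C3 and Cfb kept a narrow ratio in the control libraries, 5.14 to 5.52, and lay at 3.33 to 6.13 in BAPN, 3.00 to 3.85 with Cilengitide and 3.42 to 4.14 with SB273005. The geometric mean of the C1q chains, from gene-table FPKM, was also divided by Mrc1, a gene of resident and matrix-clearing macrophages. This ratio was 7.23 to 13.2 in PBS, 5.11 to 9.87 in BAPN, 10.7 to 15.7 with Cilengitide and 11.0 to 16.3 with SB273005. The inhibitor libraries thus lay above those of BAPN. Against Cd14 they lay below, at 5.53 to 5.96 with Cilengitide and 5.23 to 5.91 with SB273005, with BAPN at 6.35 to 7.99 and PBS at 6.23 to 8.72. Against Cd68 and Adgre1 the BAPN and inhibitor libraries overlapped. No test of these ratios was made.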
